A study of Mus musculus with 4 samples.

Results

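The PRAME family (preferentially expressed antigen in melanoma) is a large group of genes, expanded in rodents, that encode proteins built of leucine-rich repeats. Of its genes, 9 (of the 37310 genes in the table of this study) are described here in mESCs of the line JM8: Gm13109, Pramef17, BC080695, Pramef6, Pramef8, Pramef12 and Pramel5 on chromosome 4, called the 2-cell copies below, and Pramel6 and Pramel7 on chromosome 2, called the naive copies. The 9 genes were selected on their values in the contrast described below, so that their own differences are given as measured, with no test. The other copies of the family were found by name or by protein sequence, whatever their values, and serve as the comparison.

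Pramel7 and Pramel6 are expressed in the inner cell mass and in naive mESCs, where LIF acting through Stat3 raises Pramel7, and Pramel7 protein recruits the ubiquitin ligase scaffold Cul2 to Uhrf1, the partner of the maintenance DNA methyltransferase Dnmt1, which is then degraded. Many of the chromosome 4 copies are transcribed in the oocyte and the early embryo. Some appear in the rare mESCs that pass through a state resembling the 2-cell embryo, together with Zscan4, Zfp352 and the Tdpoz genes. The protein products of most of these copies have no known role.

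The series holds 4 mRNA libraries. A pair comes from wild-type JM8 cells, a line from the C57BL6/N strain, and the other pair from cells labelled Bmal1-/-, which were made from JM8 with CRISPR-Cas9. All cells, the wild-type ones included, were grown without feeders on gelatin with LIF and 2i, that is the Mek inhibitor PD0325901 at 1 µM and the Gsk3 inhibitor CHIR99021 at 3 µM. The Bmal1-/- cells are 1 clone with mutations in both alleles, so that the clone and the genotype cannot be told apart, and p-values measure the spread between cultures of 1 line each. Between 21504265 and 23329034 reads fell on genes per library. At this depth 3 reads correspond to a normalized value of 2.82 to 3.19, where the normalized value of a gene is its number of reads over a factor specific to the library.

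Bmal1 itself is listed as Arntl. With normalized values of 678 and 733 in wild-type against 556 and 590 in Bmal1-/- libraries, its mRNA was present in all of them and does not identify the genotype, so that a Bmal1-/- library here is a library labelled so. For the Bmal1-/- cells the paper reports frameshift mutations, no Bmal1 mRNA by RT-qPCR and no detectable protein by Western blot. Why the reads and the RT-qPCR differ was not tested. All 9 listed markers of mESCs had a mean over the libraries of 10 or more, the limit for testing. Of these 9, 0 were called (limma, over 2-fold), beside 5.75% of all genes tested called higher and 1.45% lower. At an adjusted p under 0.05 alone, 3 were higher and 5 lower, where 24.0% and 28.6% of all genes tested were. The largest difference among the 9 was that of Utf1 (log2 fold change -0.89 ± 0.06 SE). Of 8 fibroblast markers, Dcn and Lum had 0 reads in every library and 0 of 3 tested were called, with Thy1 alone higher at the adjusted p. Their summed value was 102 and 97.7 in wild-type against 132 and 123. Of 7 primitive endoderm markers, Sox17 rose and Sox7 fell among 4 tested, and the sum lay between 177 and 198 in all libraries. Of 7 trophoblast markers, Tfap2c (listed as Tcfap2c), which naive mESCs also express, fell among 4 tested, from 1428 and 1444 to 576 and 541, and the sum went from 1791 and 1800 to 801 and 751. Of 10 oocyte and germ cell markers, Dazl, an RNA-binding protein of germ cells, rose among 5 tested, from 615 and 594 to 2060 and 2336, while the oocyte-specific Oosp1 had 0 reads. Of the other 4 tested, Ddx4 and Zp3 were lower at the adjusted p. The sum of the list went from 1347 and 1359 to 2634 and 2940 with Dazl, and from 732 and 765 to 574 and 604 without it. The part of these marker genes in the results below was not tested. In such bulk libraries, more cells of a kind and more RNA per cell cannot be told apart.

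The copies resemble each other to very different degrees, which decides how far single rows can be read. Over the 36 pairs among the 9 genes, the coding sequences were between 59.7% and 96.96% identical, with a median of 64.5%. Pramel6 and Pramel7 lie next to each other on chromosome 2, yet were the least alike of all pairs, at 59.7% over 1401 aligned bases. The closest relative of Pramel7 among the 9 was Pramef17 on chromosome 4, at 80.9% over 1425 bases. Leucine codons made up 15% (Pramel7) to 18.1% (Pramef12) of the coding sequences, against a median of 10.1% over 21826 mouse coding sequences.

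The likeness of Pramel7 and Pramef17 continues upstream of the coding sequence. The 250 bases before the RefSeq start (assembly GRCm38.p6) of each are shown to let a naive and a 2-cell copy be compared. They were found by exact match at chr2:87332576-87332825 and chr4:143584273-143584522 of mm9, on the minus strand in both cases. Capitals mark the 203 bases that both have in the alignment, which is 83.9% of the aligned bases.
Pramel7: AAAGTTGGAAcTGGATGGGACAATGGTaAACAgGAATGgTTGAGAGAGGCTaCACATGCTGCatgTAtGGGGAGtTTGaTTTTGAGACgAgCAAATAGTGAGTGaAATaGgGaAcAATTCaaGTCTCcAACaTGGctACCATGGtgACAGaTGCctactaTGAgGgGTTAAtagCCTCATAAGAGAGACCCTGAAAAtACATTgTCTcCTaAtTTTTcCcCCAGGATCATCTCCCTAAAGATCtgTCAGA
Pramef17: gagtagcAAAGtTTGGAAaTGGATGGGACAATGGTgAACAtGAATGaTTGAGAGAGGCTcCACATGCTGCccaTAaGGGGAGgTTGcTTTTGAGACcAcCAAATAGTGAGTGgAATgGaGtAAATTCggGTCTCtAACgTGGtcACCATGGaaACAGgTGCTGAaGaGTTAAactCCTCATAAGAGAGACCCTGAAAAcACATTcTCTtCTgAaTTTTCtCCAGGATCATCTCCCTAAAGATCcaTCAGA
The same window of Pramel6 was 61.2% identical to that of Pramel7. Some annotated transcripts of Pramel7 begin at an exon further upstream (chr2:87337004-87337250), so that its window lies mainly in an intron of those transcripts and shares 26 bases with an exon.

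Other copies are so alike that short reads cannot always be assigned to 1 of them. The coding sequences of BC080695 and Gm13109, 96.96% identical, end with the same 146 bases, a stretch that occurs at 5 places of chromosome 4 in mm9, among them chr4:143162972-143163117 (BC080695, plus strand) and chr4:143538673-143538818 (Gm13109, minus strand). The other places are in exons of Gm13043, Gm13040 and Gm13057.
shared by BC080695 and Gm13109: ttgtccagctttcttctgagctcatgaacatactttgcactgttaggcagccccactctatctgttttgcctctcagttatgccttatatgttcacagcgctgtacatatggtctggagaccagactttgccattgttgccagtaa
Pramef6 (chr4:143487619-143487828, minus strand) begins its coding sequence with 210 bases that are also found in Gm13083 (chr4:143204963-143205172, plus strand). Both stretches are in lower case throughout, since no base of them differs.
shared by Pramef6 and Gm13083: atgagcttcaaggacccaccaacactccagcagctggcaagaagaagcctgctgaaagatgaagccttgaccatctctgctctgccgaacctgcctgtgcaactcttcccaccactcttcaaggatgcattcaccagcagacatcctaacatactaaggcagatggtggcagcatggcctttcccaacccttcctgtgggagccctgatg
A read of 75 bases from these stretches matches more than 1 gene. Of all 75-base exon stretches, 100% were found once in mm9 for Pramel6, Pramef8 and Pramef12, 99.95% for Pramel7, 86.9% for Pramel5, 74.8% for Pramef6, 61.2% for Gm13109, 54.4% for BC080695 and 34.0% for Pramef17. Pramef17 shares most of the rest with Gm13128, with which its coding sequence is 99.3% identical and has a run of 483 bases in common. How the authors' counting treated reads with several matches is not given in the sources used here, so the values of these 4 copies below (Pramef6, Gm13109, BC080695 and Pramef17) are uncertain as values of single genes. The 2 naive copies, Pramef8 and Pramef12 are nearly or wholly unique at this length.

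Both naive copies were more than 5 times higher in Bmal1-/- libraries. Pramel6 (ENSMUSG00000025838, chr2:87346722-87351029, plus strand) stood at 540 and 551 (normalized values) in wild-type, where Bmal1-/- libraries had 3305 and 3337. This is a 6.08-fold ratio of means, with a log2 fold change of 2.60 ± 0.05 (SE, n = 2 against 2). The replicates lay close together and the groups far apart, the lower Bmal1-/- library being 5.99 times the higher wild-type one. Pramel7 (ENSMUSG00000025839, chr2:87329244-87337250, minus strand) had values of 631 and 699 in wild-type and of 3466 and 3492 in Bmal1-/- libraries. Its log2 fold change was 2.39 ± 0.06 (SE), a 5.23-fold ratio. The neighbours therefore had almost the same level and almost the same difference, although they share the least sequence of the 9 genes. Per length, they were the most abundant of the 9 in both groups: 11.5 and 13.6 RPKM (reads scaled by exon length and by the library's reads on genes) in wild-type for Pramel6 and Pramel7, and 72.6 and 74.3 RPKM in Bmal1-/-. In wild-type this level was above that of 66.1% and 69.5% of the 14510 genes tested, and in Bmal1-/- above that of 94.3% and 94.5%.

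In 4 of the 2-cell copies the Bmal1-/- libraries were several times higher, starting from a low level in wild-type. Gm13109 (now Pramel16, ENSMUSG00000078511, chr4:143538077-143544602, minus strand) had values of 26.3 and 30.8 in wild-type against 581 and 531 in Bmal1-/- libraries. The log2 fold change of 4.24 ± 0.14 (SE) was the highest of the 9, a 19.5-fold ratio of means, and the level went from 0.585 to 11.9 RPKM, which is about where Pramel6 stood in wild-type cells. BC080695 (ENSMUSG00000070618, chr4:143157378-143163701, plus strand), the near-twin of Gm13109, had 37.9 and 42.5 against 468 and 400, with a log2 fold change of 3.40 ± 0.14 (SE). The BC080695 level went from 0.839 to 9.44 RPKM.

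Pramef17 and Pramef6 were near the floor in wild-type cells. Pramef17 (now Pramel14, ENSMUSG00000078509, chr4:143581022-143584272, minus strand) had 2.11 and 3.19 in wild-type and 75.2 and 58.2 in Bmal1-/- libraries, which is 5 reads against 141. The ratio was 25.2, with an exact 95% interval of 10.6 to 78.9 that covers counting error only, and the log2 fold change was 4.22 ± 0.36 (SE), or 2.59 with a pseudocount of 10 in place of 1. Pramef6 (now Pramel11, ENSMUSG00000078512, chr4:143484140-143490283, minus strand) had 3.16 and 12.7 against 62.0 and 54.4. Its 15 and 123 reads gave a ratio of 7.34 (exact 95% interval 4.28 to 13.5) and a log2 fold change of 2.97 ± 0.41 (SE). Here the wild-type libraries differ by more than those of any other of the 9 with reads in both, and the log2 fold change was 3.83 if wild-type replicate 2 was left out and 2.10 if replicate 1 was. Both Pramef17 and Pramef6 passed the filter only through the Bmal1-/- libraries, and per length they reached no more than 1.73 and 1.27 RPKM there.

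The remaining 3 of the 2-cell copies had either a much smaller difference or hardly any reads. Pramef8 (now Pramel12, ENSMUSG00000046862, chr4:143002329-143010994, plus strand) was expressed in wild-type too, at 434 and 411 against 566 and 584 in Bmal1-/- libraries. Its difference was the smallest, a 1.36-fold ratio with a log2 fold change of 0.44 ± 0.07 (SE). Pramef12 (now Pramel13, ENSMUSG00000028591, chr4:143981577-143998367, minus strand) had 213 and 185 against 422 and 370, a 1.99-fold ratio with a log2 fold change of 0.99 ± 0.10 (SE). An antisense row, D530049N12Rik, lies within Pramef12 and held 0, 0, 2 and 1 reads in the 4 libraries. With 4.42 and 3.38 RPKM in wild-type, Pramef8 and Pramef12 were the most abundant 2-cell copies there, so that the shared name covers copies of unlike level. Pramel5 (ENSMUSG00000036749, chr4:143860536-143870391, minus strand) stayed under the filter, at 0 and 1.06 against 11.3 and 9.54. It had 1 read in wild-type and 22 in Bmal1-/- libraries, a ratio of 19.7 whose exact 95% interval runs from 3.18 to 812.

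**Figure D1:**
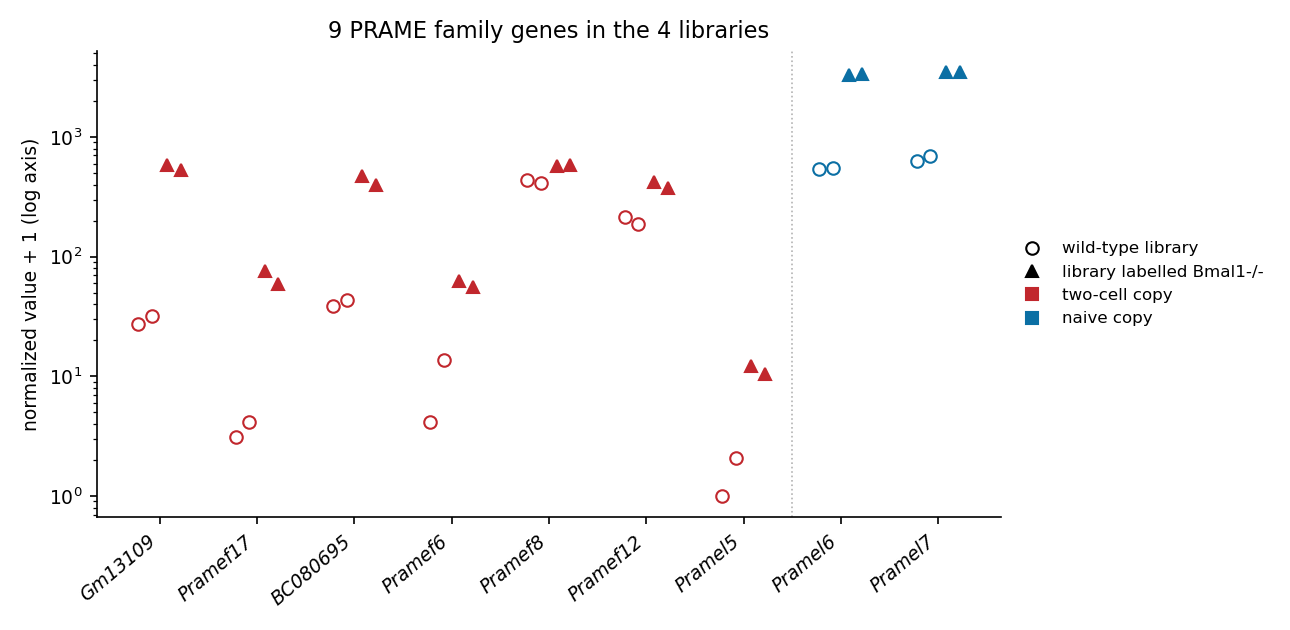
Normalized value plus 1 (log axis) of the 9 genes in each library, with open circles for the 2 wild-type libraries, filled triangles for the 2 libraries labelled Bmal1-/-, red for 2-cell and blue for naive copies. In all 9 genes both triangles lie above both circles; the gap is smallest in Pramef8 (1.36-fold between means) and wide in Gm13109 (19.5-fold).

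In all 9 genes the groups did not overlap, the Bmal1-/- libraries being the higher ones. The same holds for 34.6% of the 14510 genes tested, and since the 9 were selected on these values, nothing is read from their count. The sets were then set side by side, as a description. The median log2 fold change was 3.18 over the 6 tested of the 2-cell copies, against 2.60 and 2.39 in the naive copies, while it was -0.03 over all genes tested. This order depends on how low values are treated, since the median of the 2-cell copies was 2.19 with a mean of at least 100 and 2.28 with a pseudocount of 10, below the naive copies (2.495 and 2.48). The naive copies lay inside the range of the 2-cell copies (0.44 to 4.24), between the 4 copies with low wild-type levels and the pair Pramef8 and Pramef12. In amount of RNA the naive copies led. Per length, their summed level was 24.2 and 25.9 RPKM in wild-type and 146 and 147 RPKM in Bmal1-/- libraries, and that of the 2-cell copies 9.60 and 9.34 against 39.8 and 35.8 RPKM. Of the difference in the summed normalized value of the whole family, from a mean of 2695 to 12315, Pramel6 and Pramel7 made up 58.1%, the 2-cell copies 14.5% and all other copies 27.4%. By library, the sum was 2652 and 2737 in wild-type against 12365 and 12265. The naive copies held 44.2% and 45.7% of it in wild-type and 54.8% and 55.7% in Bmal1-/- libraries. The 2-cell copies held 27.02% and 25.1%, against 17.7% and 16.4%. The other copies include Lrrc14, a distant relative without a PRAME name, with means of 474 in wild-type and 400 in Bmal1-/- libraries. With Lrrc14, the other copies summed to 782 in wild-type and 3419 in Bmal1-/- libraries. The tested ones without it summed to 302 and 2912. All these shares therefore depend on whether Lrrc14 is counted.

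**Figure D2:**
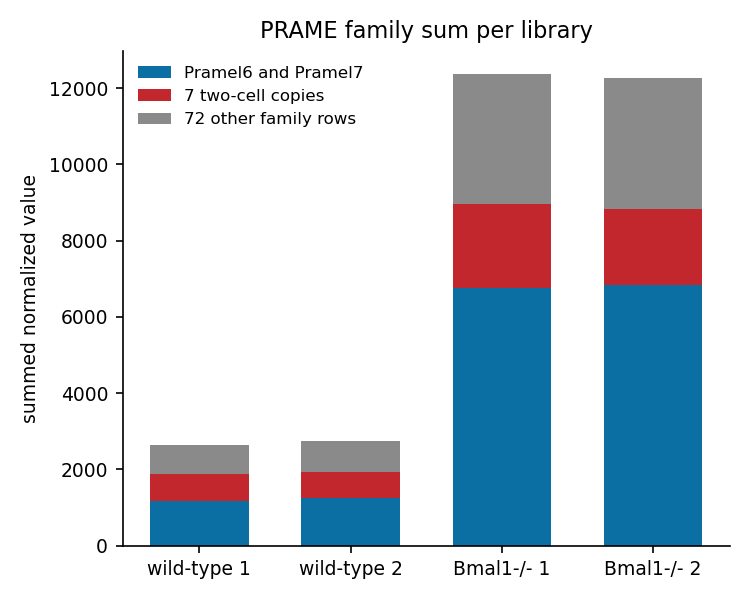
Summed normalized value of all 81 family rows in each of the 4 libraries (bars from 0), split into Pramel6 with Pramel7 (blue), the 2-cell copies (red) and the 72 other family rows (grey). The bars reach 2652 and 2737 in wild-type and 12365 and 12265 in Bmal1-/- libraries, with blue the largest block in each. The grey block includes Lrrc14, with means of 474 in wild-type and 400 in Bmal1-/- libraries.

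Beyond the 9 genes, 72 rows of the table belong to the family, 31 by a current or older name and 41 only by the similarity of their proteins. Of these 24 had 0 reads in all libraries, 30 had reads but a mean under 10, and 18 were tested. Across the 30 low rows, wild-type libraries held 13 reads and Bmal1-/- libraries 226. Of the 18 tested, 16 were called higher (over 2-fold, limma with Benjamini-Hochberg adjusted p under 0.05) and 0 lower, where 5.75% of all genes tested were called higher and 1.45% lower (835 and 211 genes, or 590 and 426 with quantile normalization). The 16 calls need the same caution as above, since 9 of the 18 passed the filter only through the Bmal1-/- libraries and had to differ. Of the other 9, whose wild-type mean was 10 or more, 7 were called higher. These rows are not independent of each other or of the selected genes. The coding sequences of Gm12794 and Gm12800 are 96.76% identical, and those of Gm13119 and the selected Gm13109 96.89%. Gm13128 shares 1010 of its 75-base stretches with the selected Pramef17, and Gm13083 shares 394 with Pramef6. The counts of 16 and 7 are therefore not read as counts of separate genes. The median over the 18 was 3.30.

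The copies called higher came from 3 clusters. On chromosome 5, 7 of 7 tested copies were called, with log2 fold changes of 3.03 to 3.86. The most abundant was AA792892, with 44.2 and 60.5 in wild-type and 497 and 527 in Bmal1-/- libraries (log2 fold change 3.28 ± 0.14 SE, adjusted p = 6.44e-14). The other 6, Gm6346, Gm3147, Gm7682, Gm7942, Gm10424 and Gm3176, had a wild-type mean of at most 5.82. They passed the filter only through the Bmal1-/- libraries and had to differ, so that AA792892 alone was free to go either way. Only 0.486% to 20.48% of the 75-base stretches of the 6 were unique, so their values are uncertain one by one. For AA792892 the share was 37.6%, so its values too are uncertain as those of a single gene. On chromosome 4, 9 of 10 were called. C130073F10Rik, with 60.0 and 57.4 in wild-type, had 432 and 483 in Bmal1-/- libraries (log2 fold change 2.94 ± 0.12 SE, adjusted p = 4.49e-14), and 99.1% of its stretches are unique. Gm13119 went from 33.7 and 32.9 to 421 and 441 (log2 fold change 3.65 ± 0.13 SE), and Gm13078 from 30.6 and 37.2 to 357 and 360 (log2 fold change 3.37 ± 0.15 SE). Gm12794, Gm12800, Gm12790, B020004J07Rik, Gm13083 and Gm13128 rose by log2 fold changes of 2.80 to 3.94. The unique share was 94.1% in Gm13078 and 90.9% in B020004J07Rik. In Gm13119, Gm12794, Gm12800, Gm12790, Gm13083 and Gm13128 it was 33.7% to 80.2%, so their values are uncertain one by one. B020004J07Rik, Gm13083 and Gm13128 also passed the filter only through the Bmal1-/- libraries. C130073F10Rik, Gm12794, Gm12800, Gm12790 and B020004J07Rik form a group of their own on chromosome 4, with starts from position 101507574 to 101640058, away from the cluster that holds the 2-cell copies.

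Of the rows tested, 2 were not called. Pramel1, next to Pramef8, had 24.2 and 30.8 against 36.6 and 36.2 (log2 fold change 0.40 ± 0.25 SE, adjusted p = 0.192). Lrrc14 on chromosome 15, a distant relative that carries no PRAME name, had 472 and 476 against 428 and 372 (log2 fold change -0.25 ± 0.08 SE, adjusted p = 0.0162). It was the 1 tested row of the family below 0. Prame itself had 0 reads in wild-type and 1 in Bmal1-/- libraries. The oogenesins Oog1, Oog2 and Oog3, which are family members of the oocyte, had 0 against 1 read each, and Oog4 had 1 against 8.

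**Figure D3:**
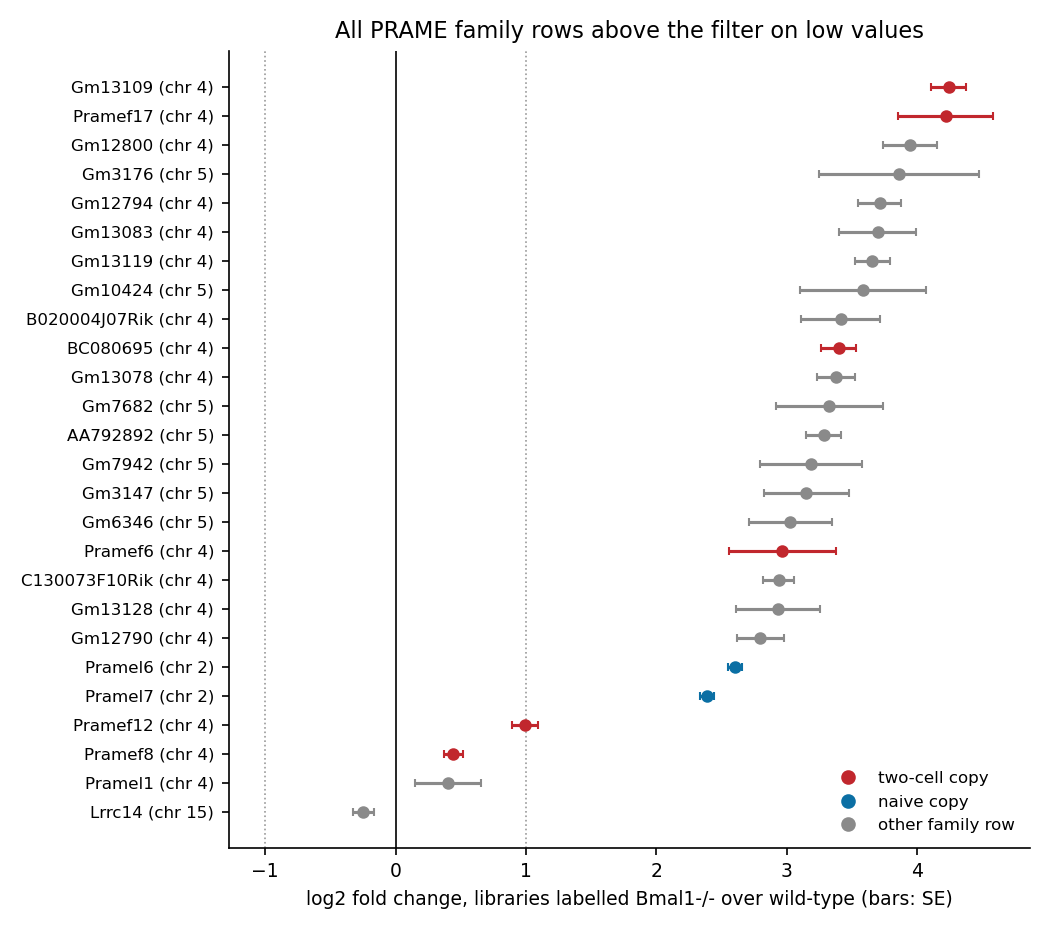
Log2 fold change of the libraries labelled Bmal1-/- over wild-type, with its SE as bars, for the 26 family rows above the filter on low values, sorted, with the chromosome after each name; red marks 2-cell copies, blue naive copies, grey other family rows and dotted lines a 2-fold change. From Pramel7 (2.39) upwards the rows form a group up to 4.24, and 4 rows, Pramef12, Pramef8, Pramel1 and Lrrc14, lie below it.

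Along the chromosome 4 cluster, which spans about 1 Mb, the copies at both ends had the smallest differences. At its proximal end Pramel1 and Pramef8 had log2 fold changes of 0.40 and 0.44, and at its distal end Pramef12 had 0.99. All 8 tested copies in between, from BC080695 at 0.155 Mb to Gm13119 at 0.946 Mb from the start of Pramef8, had 2.93 to 4.24. Of these, Gm13083, Pramef6, Pramef17 and Gm13128 passed the filter only through the Bmal1-/- libraries and had to differ. BC080695, Gm13078, Gm13109 and Gm13119, with a wild-type mean of 10 or more, had 3.37 to 4.24. Other copies in this span were not tested, among them Gm13088 and Gm13103 with 0 reads. Pramef12 follows Gm13119 at 0.979 Mb. This order was seen in the same values that chose the members, and it is given as a description.

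Most genes around the 9 were silent or moved little. Within 1 Mb of them lie 185 rows outside the family, of which 152 had 0 reads and 13 were tested. Of these 2 were called higher, beside the 5.75% of all genes. The pseudogene Gm13106, which lies inside the cluster between Pramef6 and Gm13109, had a log2 fold change of 3.37 ± 0.63 (SE, adjusted p = 0.000134). With 0 and 3 reads in wild-type against 24 and 19, it passed the filter only through the Bmal1-/- libraries and had to differ. The search by sequence covered coding genes only, so whether Gm13106 is a copy of the family was not tested. Dhrs3, a retinal reductase gene 1.48 Mb from the start of Pramef8, had 1.74 ± 0.17 (SE, adjusted p = 6.50e-08). At an adjusted p under 0.05 without a fold limit, 6 of the 13 were higher and 0 lower, where 24.0% of all genes were higher and 28.6% lower. The nearest protein-coding gene tested before the cluster, Pdpn, had 0.50 ± 0.07 (SE). Beyond it, Vps13d had 0.65 ± 0.06 (SE) and Tnfrsf1b had 0.01 ± 0.09 (SE). Around Pramel6 and Pramel7 only Gm13736 (0.57 ± 0.30 SE, adjusted p = 0.121) and the olfactory receptor gene Olfr153 (-0.03 ± 0.26 SE, adjusted p = 0.932) were tested.

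**Figure D4:**
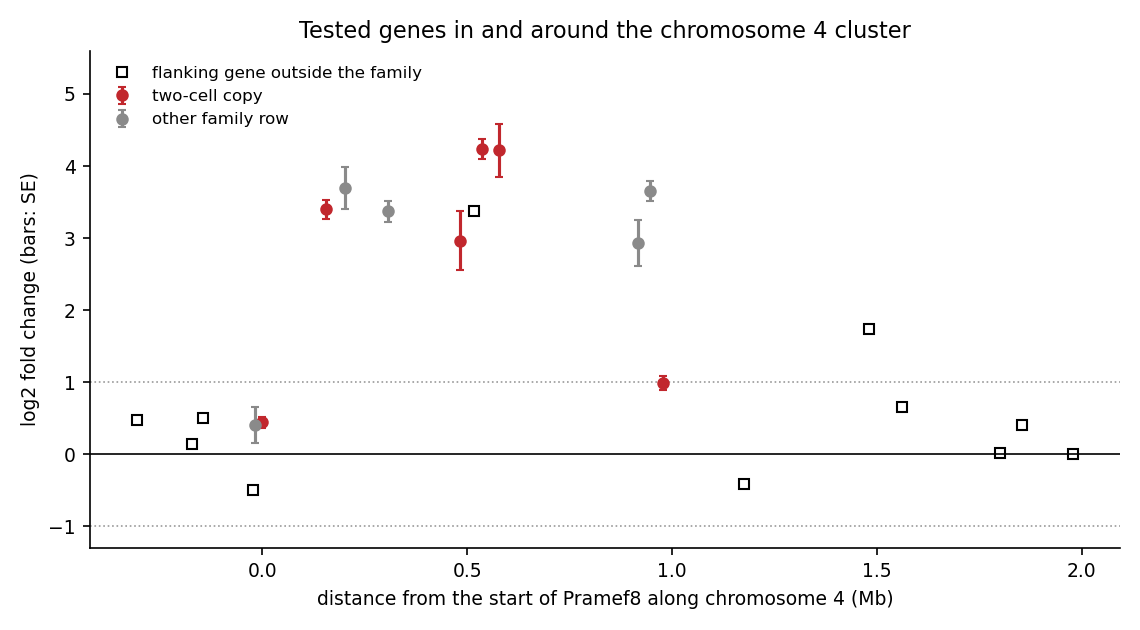
Log2 fold change of the tested genes (bars: SE, drawn for family genes only) in and within 1 Mb of the chromosome 4 cluster against their distance from the start of Pramef8 in Mb; red circles are 2-cell copies, grey circles other family rows and open squares genes outside the family. The family rows between 0.155 and 0.946 Mb lie between 2.93 and 4.24 and those at both ends below 1, as do all squares but Gm13106 and Dhrs3.

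The pattern was then set beside the share of unique sequence, since a read from a shared stretch can be counted for another copy. Of the tested family rows with at least 90% unique 75-base stretches, the 4 among the members (Pramel6, Pramel7, Pramef8 and Pramef12) had log2 fold changes of 0.44 to 2.60. Of the 5 other rows of this class, 3 were called higher, namely C130073F10Rik, Gm13078 and B020004J07Rik, at 2.94 to 3.41. All 13 other rows with less unique sequence were called, at 2.80 to 3.94, and the 4 members with less unique sequence were at 2.97 to 4.24. Among the called rows, the 9 with a wild-type mean under 10 passed the filter only through the Bmal1-/- libraries and had to differ. B020004J07Rik is the one of these in the class of at least 90%, and the others are in the less unique class. The members Pramef17 and Pramef6 passed in the same way. Differences above 2.9 occurred in both classes, but no such row was wholly unique, the highest share being 99.1% in C130073F10Rik. The rows at 99.95% or 100%, namely Pramel6, Pramel7, Pramef8, Pramef12, Pramel1 and Lrrc14, lay at 2.60 or below. These include the 4 rows below 1. The part of shared reads in the single values was not tested.

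**Figure D5:**
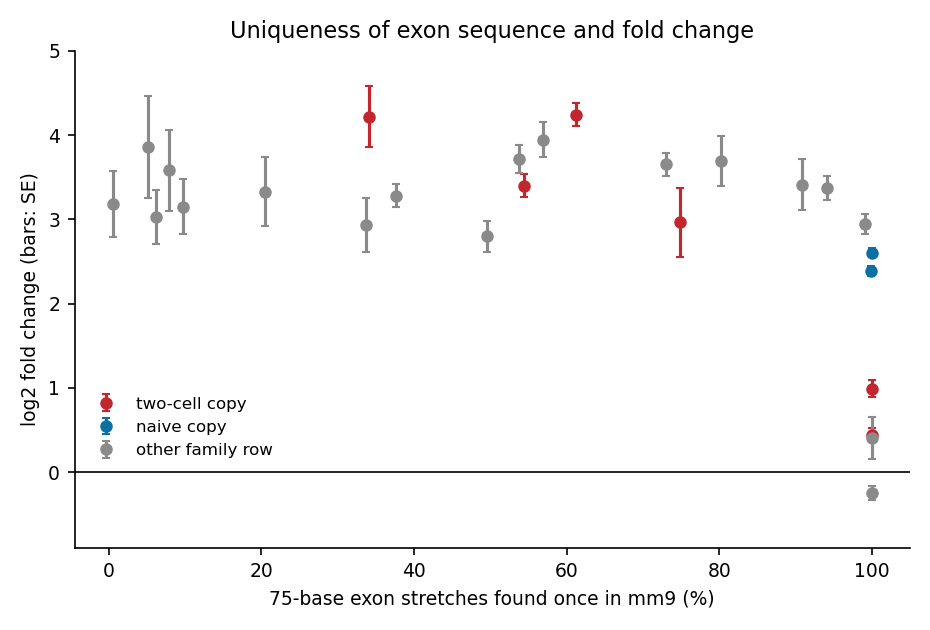
Log2 fold change (bars: SE) of the 26 tested family rows against the percentage of their 75-base exon stretches found once in mm9; red marks 2-cell copies, blue naive copies and grey other family rows. Rows with 0.486% to 94.1% unique stretches lie between 2.80 and 4.24, and rows at or above 99% range from -0.25 to 2.94.

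The windows before the RefSeq starts were searched for short motifs on both strands, from 250 bases before to 50 behind the start. Windows were found for 7 of the 9 genes (not BC080695 and Pramef8) and for 48 of the family in all. As with Pramel7 above, the window of Gm13109 lies inside its gene as annotated on mm9, with 2 exon blocks upstream. The sequence before the annotated start of Gm13109 was therefore not searched. The E-box CACGTG, the element that the Bmal1-Clock dimer binds, was in 0 of the 7 and 0 of the 48, against 7.15% of 32851 mouse promoters. TTCNNNGAA, the element of Stat proteins, was also in 0 of the 48, against 8.30%. The 48 windows include identical copies, and all promoters were not matched to them in base composition. Nothing is therefore read from these 0 counts. The looser CANNTG, which includes every E-box, was in 7 of 7 and in 42 of 48, against 72.3%. GATTCAATC, the core of the site of the 2-cell factor Dux, was in 0 of the 7 but in 6 of the 48, against 0.149%. The 6, B020004J07Rik, Gm12790, Gm13040, Gm13043, Gm13057 and Gm13119, are not independent sequences. Gm13040 and Gm13057 have the same 250 bases, and the windows of B020004J07Rik and Gm12790 are 95.15% identical. Gm13040, Gm13043 and Gm13057 had 0 reads in all libraries. Nothing is therefore read from the count of 6. TATAAA was in 0 of the 7 and 13 of the 48, against 13.6%, and CCAAT in 3 of the 7 (Pramef6, Pramel5 and Pramel6) and 25 of the 48, against 37.4%. The window of Gm13119, the neighbour of Pramef12, is shown because it holds both GATTCAATC and TATAAA. It covers chr4:143947617-143947866 of mm9 on the plus strand and ends at the RefSeq start, its last 22 bases lying in the exon annotated on mm9. Capitals mark the Dux core (on the minus strand) and TATAAA.
Gm13119: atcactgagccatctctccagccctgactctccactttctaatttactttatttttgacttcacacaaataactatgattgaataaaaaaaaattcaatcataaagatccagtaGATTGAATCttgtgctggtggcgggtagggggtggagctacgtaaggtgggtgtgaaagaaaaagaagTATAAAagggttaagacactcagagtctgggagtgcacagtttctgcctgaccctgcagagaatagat
A match is a description of letters and not a site in use, and 0 matches say only that these letters are not in this window.

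Known partners of these genes were examined through lists. Genes of the 2-cell-like state outside the family moved in 1 direction. Of the 26 found, 23 were tested and 23 called higher, beside 5.75% of all genes, with a median log2 fold change of 3.48 and a range of 2.70 to 4.003. Of the 23, 7 passed the filter only through the Bmal1-/- libraries and had to differ. The other 16, whose wild-type mean was 10 or more, were all called, at 3.08 to 4.003. Many of the 23 are Zscan4, Tdpoz or Usp17l genes, which are also groups of copies. How much sequence the 23 share was not examined, so they are not read as independent genes. The list was also chosen with earlier results of these data known. Sp110 had 12.6 and 13.8 in wild-type and 236 and 218 in Bmal1-/- libraries (log2 fold change 4.003 ± 0.19 SE, adjusted p = 6.81e-13). The DNA-binding protein gene Zscan4e, the transcription factor gene Ubtfl1 and Zscan4c rose by 3.91, 3.84 and 3.79 on the log2 scale, and Gm2016 and Zscan4f by 3.76 and 3.69. Dux, the factor that starts this program, stayed under the filter with 2.11 and 1.06 against 12.2 and 11.4.

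Genes linked to the naive copies had differences under 2-fold, in both directions. Of 18 naive pluripotency factors 18 were tested and 0 were called in limma, with 9 higher and 7 lower at an adjusted p under 0.05. edgeR and DESeq2 also called 0. Over all genes, 5.75% were called higher and 1.45% lower, and 24.0% and 28.6% passed the adjusted p, so that 0 calls in lists of this size are near the background. The largest differences were those of Dppa3, a maternal factor, and of Fbxo15, an F-box protein gene of mESCs. Dppa3 had 1148 and 1157 against 601 and 590 (log2 fold change -0.95 ± 0.06 SE, adjusted p = 5.40e-11). Fbxo15 had 6196 and 6547 against 11266 and 11564 (0.84 ± 0.04 SE, adjusted p = 6.32e-13). The 3 with the highest normalized values, which are not corrected for length, were Dppa5a (log2 fold change -0.12 ± 0.04 SE), Pou5f1 (-0.13 ± 0.04 SE) and Tfcp2l1 (listed as Tcfcp2l1, 0.40 ± 0.04 SE). Of 10 genes of the LIF-Stat3 pathway, which acts upstream of Pramel7 in mESCs, 0 were called by limma, edgeR or DESeq2, and 2 were higher and 5 lower at the adjusted p, against the same background. Stat3 had 2460 and 2433 against 2162 and 2148 (log2 fold change -0.18 ± 0.05 SE, adjusted p = 0.00204). Pim1, a kinase gene that Stat3 induces, had 0.31 ± 0.05 (SE) and the LIF receptor kinase gene Jak1 0.34 ± 0.05 (SE). Socs3, a direct Stat3 target that feeds back on the pathway, had 1360 and 1379 against 1050 and 1100 (-0.35 ± 0.05 SE, adjusted p = 1.82e-05). The part of this pathway in the values of Pramel6 and Pramel7 was not tested. Of the 9 genes of the Uhrf1 and cullin-2 group, on which Pramel7 protein acts, 0 were called by the same tools, and 3 were higher and 3 lower at the adjusted p, again beside 24.0% and 28.6% of all genes. The largest differences were those of the de novo methylation genes Dnmt3l, with 389 and 321 against 629 and 623 (log2 fold change 0.82 ± 0.09 SE, adjusted p = 1.05e-07), and Dnmt3a, with 793 and 774 against 1175 and 1179 (0.59 ± 0.06 SE, adjusted p = 4.41e-08). Uhrf1 had 18210 and 16817 against 19126 and 19093 (log2 fold change 0.13 ± 0.04 SE, adjusted p = 0.0123), Dnmt1 -0.09 ± 0.04 (SE, adjusted p = 0.0504) and Cul2 0.08 ± 0.04 (SE, adjusted p = 0.142). These are mRNA levels, and protein was not measured in these libraries.

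The 5 tested genes outside the family whose 4 centred log2 values lay closest to the mean profile of the 6 tested of the 2-cell copies were Tdpoz1, Antxr1, Prex2, AI427809 and Gm11784. Their Euclidean distances over the 4 libraries were 0.0592 to 0.130, and their log2 fold changes 2.60 to 2.74. Pramel6 and Pramel7 lay at 0.299 and 0.383 from the same mean profile and the 6 copies it averages between 0.705 (BC080695) and 2.29 (Pramef8). Nothing is read from this order, since the profile averages selected copies with log2 fold changes of 0.44 to 4.24 and lies between them by construction.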

How the data were processed

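The study sequenced mRNA of JM8 mESCs, 2 libraries per genotype, with a stranded kit as paired 75-bp reads. The submitters' processing notes name bcl2fastq 2.18.0.12, cutadapt 1.9.1, STAR 2.5.2b and mm9. The counting tool, its strand setting and its treatment of reads with several matches are not given in the sources used here. The deposited signal values are read counts per gene that the authors divided by a TMM factor of each library (NOISeq) before deposit. Every value was a whole multiple of 1 number per library (tolerance 0.01 of a read), so whole reads were recovered for 100% of values. Of the columns, 0 belonged to no sample.

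The 14510 genes whose mean value reached 10 were tested with limma 3.58.1 (intensity trend) in R 4.3.3 on log2(value + 1), 2 libraries against 2, with Benjamini-Hochberg adjustment over all of them. A gene was called with an adjusted p under 0.05 and a fold change above 2. Fold changes of low genes are understated by the pseudocount of 1. On simulated data for this comparison (14510 genes, 200 changed) limma recovered 94.5% of the changed genes and called 1 unchanged gene. Alternatives were other pseudocounts, filters and scalings, a replicate block, leaving out 1 library at a time, and edgeR 4.0.16 (quasi-likelihood) and DESeq2 1.42.0 on the whole reads.

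Members and lists were chosen with earlier results of these data known. Family rows were found through current and older names (RefSeq) and by blastp (BLAST 2.17.0, E-value under 1e-20, at least 50% of the protein's length). List genes were matched by symbol or, for 8 of them, by an older symbol. Genes were named by a rule: the 9 members, at most 15 other family rows by mean value, the called genes of each list (at most 6 by fold change) or else its 3 most abundant, the 5 nearest profiles and Arntl. Gm7942, Gm10424, Gm3176, Prame, the oogenesins, Socs3, Utf1, Ddx4, Zp3, Dppa3, Fbxo15, Dnmt3l, Dnmt3a, Thy1, Dcn, Lum, Oosp1, Dux, D530049N12Rik and the flanking genes were named after their values were seen. Annotation was GENCODE M1 on mm9 (NCBIM37). RefSeq windows are from GRCm38.p6. Sequence work used Python 3.11.15 and biopython 1.88.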

Additional observations from a re-analysis of the deposited data

How the results depend on the processing

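Of the 8 members tested (Pramel5 was not), 0 changed direction under any of the alternatives run. The count of all genes called was 1046 and that of other family rows 16. With a mean value of at least 100 in place of 10 these counts were 318 and 6, the flanking genes called went from 2 to 0 and the other 2-cell-state genes called from 23 to 14, because fewer genes are tested. The median log2 fold change of the 2-cell copies, 3.18, was 2.19 with that filter, 2.28 with a pseudocount of 10 and 2.88 with quantile normalization. In the first and second of these it fell below the median of the naive copies (2.495 and 2.48), so that the order of the sets turned. With 1 library left out it ran from 2.71 to 3.65, the low end without wild-type replicate 1 and the high end without the other wild-type library, where a lone library is assumed to vary like the other group. The median of the naive copies ran from 2.45 to 2.56 over all alternatives. With 1 library left out, all genes called ran from 956 to 1115, and other family rows called stayed at 16. No filter on low values gave 23 other family rows called. Quantile normalization left 58.1% of all calls higher, against 79.8% with the authors' scaling and 74.5% to 83.7% under the other alternatives. The replicate numbers share only a number (correlation of same-numbered deviations -0.02), and with the replicate block 1056 genes and 16 other family rows were called. Single rows near the floor of 3 reads and rows with shared sequence are limited by depth and by assignment of reads.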
